A study of Homo sapiens with 18 samples.

Results

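The KRAB line of RWPE1 cells was compared with the 3X and VP64 lines before induction, that is, in the 9 vehicle-treated libraries of 18 in all. RWPE1 is an established benign human prostate epithelial line. Each line stably carried 1 of 3 MACC constructs, fusions of a steroid receptor DNA-binding domain with the tamoxifen-responsive ERT2 domain and a 3xFLAG tag. The KRAB construct adds a repressor domain, the VP64 construct adds an activator domain, and the neutral 3X construct adds no effector. The members are the 3 KRAB vehicle libraries and the 6 others (3 of 3X and 3 of VP64), all given ethanol for 48 h. The 9 matching tamoxifen libraries (1.5 uM in one label field, 1.25 uM in another) served as a reference for the induced state. There too KRAB was set against the average of 3X and VP64, and the VP64 activator was then induced as well. A difference with tamoxifen may thus hold KRAB effects, VP64 effects and lasting differences between lines, which that contrast cannot tell apart. All cells had been infected with lentivirus and selected with blasticidin, and grew in keratinocyte serum-free medium with EGF and pituitary extract. Replicates are labelled as biological replicates, with 3 in each group. Each construct is represented by a single selected line, so construct, integration sites and the history of the line cannot be told apart.

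A fusion with ERT2 is held away from chromatin by cytoplasmic chaperones until tamoxifen binds it. KRAB recruits the corepressor TRIM28 and histone H3 lysine methylation to the sites that the fusion occupies, and nearby genes fall silent. Where some fusion protein reaches DNA without ligand, an inducible line already differs from its neighbours before the drug, which is called leak. The comparison asks which genes differed in the uninduced KRAB line, and whether these differences resembled those seen with tamoxifen.

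The vehicle libraries held 720502 to 792282 counts, and 3984 to 4494 genes reached 10 counts in a library. Tests were run on the 5816 genes that reached 10 counts in 3 or more of the 18 libraries. Of the counts at annotated genes, 89.0% sat at genes whose exons are overlapped by another gene on the opposite strand, and the strand setting of the counting was not stated. At loci whose transcribed strand is known, most counts sat at the row on the other strand. In the vehicle libraries FTH1 had 174 to 303 counts and BEST1 opposite it 40830 to 57539, VIM had 78 to 182 and VIM-AS1 4645 to 10336, and the 12 protein genes of the mitochondrial heavy strand summed to 764 to 2062 against 2323 to 6792 for MT-ND6 alone, the only one on the light strand. A row with no gene opposite it (H19, FKBP5 and ESR1 among those below) may thus hold a minor share of the reads of its locus, and a row at 0 does not show that its gene is silent. At an overlapped locus the reads of a row may likewise come mostly from the gene opposite it, which was not settled row by row. The opposite-strand gene with the longest overlap is therefore named beside each row, where it has a symbol. All values below are normalized counts, in order of replicate number where 3 are given. The basal markers summed to 2753 to 3775 CPM in the KRAB libraries and 2744 to 3762 CPM in the others. Of 10 luminal markers 4 were at 0 in all 9 libraries (KLK3, KLK2, ACPP and HOXB13), and their sum of 1174 to 1325 CPM in KRAB against 962 to 1046 CPM was nearly all at the KRT8 row, which lies opposite KRT18. Of 6 fibroblast markers 5 were at 0 in every library, as were the endothelial markers CDH5 and VWF and the leukocyte markers PTPRC and CD3E, while the third leukocyte marker, CD68, had 9 to 29 counts.

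The promoters that carry the interferon and steroid genes of this comparison are shown first, because the results below turn on both gene groups. They are RefSeq sequences on GRCh38.p14, 250 bases before to 50 after the gene start, read 5′ to 3′ on the strand of the gene. In the first 3, capitals mark GAAANNGAAA on either strand, the core of the element through which interferon acts. In FKBP5, capitals mark AGAACA on either strand, a single arm of a steroid response element.

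TAP1, chr6:32853655-32853954, minus strand: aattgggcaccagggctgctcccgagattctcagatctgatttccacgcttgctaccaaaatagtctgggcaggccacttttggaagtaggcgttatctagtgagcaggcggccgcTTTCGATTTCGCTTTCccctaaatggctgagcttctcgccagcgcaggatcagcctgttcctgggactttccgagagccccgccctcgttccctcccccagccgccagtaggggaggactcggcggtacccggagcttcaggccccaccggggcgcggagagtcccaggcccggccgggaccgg

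MX1, chr21:41420308-41420607, plus strand: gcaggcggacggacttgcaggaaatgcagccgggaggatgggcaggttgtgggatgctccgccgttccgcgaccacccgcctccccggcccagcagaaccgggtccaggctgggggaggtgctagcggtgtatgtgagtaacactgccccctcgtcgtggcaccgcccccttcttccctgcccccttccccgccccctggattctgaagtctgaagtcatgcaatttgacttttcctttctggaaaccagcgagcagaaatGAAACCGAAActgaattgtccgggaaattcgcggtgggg

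HLA-F, chr6:29723184-29723483, plus strand: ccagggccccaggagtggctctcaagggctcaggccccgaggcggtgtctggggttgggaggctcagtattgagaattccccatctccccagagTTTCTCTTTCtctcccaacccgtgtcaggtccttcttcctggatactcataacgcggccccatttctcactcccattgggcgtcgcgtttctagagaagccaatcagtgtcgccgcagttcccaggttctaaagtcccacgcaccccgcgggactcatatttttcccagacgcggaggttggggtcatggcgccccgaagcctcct

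FKBP5, chr6:35728534-35728833, minus strand: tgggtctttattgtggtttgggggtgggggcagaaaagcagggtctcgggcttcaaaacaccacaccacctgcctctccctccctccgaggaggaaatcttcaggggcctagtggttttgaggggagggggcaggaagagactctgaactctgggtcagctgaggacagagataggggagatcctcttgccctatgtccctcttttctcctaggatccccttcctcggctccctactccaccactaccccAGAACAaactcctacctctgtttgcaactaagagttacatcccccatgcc

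GAAANNGAAA occurs in 3.65% of the 27305 promoters of that length, and TAP1 holds 2 overlapping copies on the opposite strand. Among the 46 genes with a promoter that lie at or opposite rows higher in the vehicle-treated KRAB line, 3 held it, the 3 shown. Of the 43 at or opposite lower rows 1 did (FAT2). AGAACA occurs in 14.9% of all promoters, in 3 of those 46 (H19, PHLDB1 and TCP11L2), in 5 of those 43, and in 2 of 17 promoters of steroid-receptor targets (FKBP5 and KLK3). Matches of the 2 motifs overlapped each other in 1 of the 27305 promoters. The full steroid response element, with both arms, occurred in 1 of the 27305 promoters. It occurred in 0 of those 46, 0 of those 43 and 0 of the 17 steroid-receptor targets. A single arm was no more frequent among these targets (11.8%) than among all promoters (14.9%). For FKBP5 the paper reports response elements in enhancers E1 and E2, and the search here covered promoters only. A match is a run of letters and was not tested for binding.

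The construct itself was read first. ZNF10, the zinc finger gene whose KRAB domain is widely used as a repressor, had 2, 8 and 6 counts in the KRAB vehicle libraries. It had 0 counts in all 12 libraries of the other lines, which allows up to 3 counts in each, and 6, 16 and 2 counts in the KRAB tamoxifen libraries. Reads of ZNF10 were thus found in the KRAB libraries alone among the 18, at a depth too low for a test. ESR1, the source of ERT2, stood at 80.7, 49.4 and 34.9 in the KRAB line and between 25.8 and 64.5 in the others. The difference in ESR1 was 0.40 ± 0.29 (log2, SE, adjusted p = 0.59), and its 95% interval of −0.17 to 0.96 leaves room for a KRAB line with more or slightly less ESR1.

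Before induction 159 of the 5816 genes differed between the KRAB line and the other lines (2.73%, adjusted p under 0.05). Of these 72 were higher in KRAB (1.24%) and 87 lower (1.5%). Independent filtering gave no adjusted p to 2594 genes of low count, which could not be called, and of the 3222 others 2.23% were called higher and 2.70% lower. The 3 KRAB libraries lay outside the range of the 6 others for 124 of the 159. Over all genes tested, such separation occurred upwards in 3.03% and downwards in 2.92%. The absolute log2 difference ran from 0.18 to 4.83 and exceeded 1 in 43 genes, 14 higher and 29 lower. All 159 had the same sign against 3X and against VP64, although the average over both lines favours such genes. Of the 159, 120 were also called against 3X alone, 90 against VP64 alone and 69 against each of them. Taken singly, 146 genes differed from 3X (2.51%) and 100 from VP64 (1.72%). The VP64 and 3X lines differed from each other in 47 genes (0.808%), a count that other settings took to between 0 and 53. Of the 159 genes 12 were also called between VP64 and 3X.

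The rows of the imprinted pair H19 and IGF2 were higher in uninduced KRAB cells. By the strand limit above, the IGF2 row may hold reads of IGF2-AS, and the H19 row a minor share of its locus. H19 is a long noncoding RNA transcribed beside IGF2, which encodes a fetal growth factor. H19 (chr11:2016396-2025782, minus strand, GRCh37) stood at 101, 110 and 107 in the KRAB vehicle libraries and between 12.6 and 43.4 in the others, with a median of 30.2. No other vehicle library came near the KRAB values. The difference was 1.91 ± 0.23 on the log2 scale (adjusted p = 1.21e-13), or 3.76-fold. IGF2 (chr11:2150342-2179621, minus strand, opposite IGF2-AS) stood at 45.6, 59.3 and 36.7 against 2.90 to 15.6, a difference of 2.30 ± 0.34 (adjusted p = 5.74e-09). With tamoxifen the KRAB libraries reached 382, 376 and 322 for H19 while the other lines held 19.5 to 32.6, a difference of 3.83 ± 0.23. For IGF2 the same values were 154, 157 and 182 against 4.07 to 16.4 (3.95 ± 0.33). The difference between lines was larger with tamoxifen for both genes, by 1.92 ± 0.32 for H19 (adjusted p = 3.37e-07) and by 1.65 ± 0.47 for IGF2 (adjusted p = 0.0104).

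Rows opposite genes of antigen presentation and the interferon response were also higher in uninduced KRAB cells. The row XXbac-BPG248L24.12 lies opposite HLA-B, a class I molecule that presents peptides to T cells, and stood at 2207, 1926 and 1907 against 1330 to 1585 in the other vehicle libraries. Its difference was 0.47 ± 0.07 (adjusted p = 4.02e-10). TAPSAR1 lies opposite TAP1, the transporter that loads these peptides. It stood at 518, 492 and 513 against 302 to 382 (0.60 ± 0.09, adjusted p = 1.43e-08). HCG4P11, opposite HLA-F, stood at 308, 253 and 287 against 181 to 247 (0.42 ± 0.13, adjusted p = 0.0297). That call ended under edgeR (adjusted p = 0.058) and limma (adjusted p = 0.0807), without KRAB replicate 1 (0.234) or 3 (0.122), and without 3X replicate 3 or VP64 replicate 1 or 3 (0.0765 to 0.0965). HLA-F is a nonclassical class I gene, and reads of the near-identical class I genes may be split among them. AP001610.5, opposite the antiviral GTPase gene MX1, stood at 26.6, 40.4 and 19.3 against 8.33 to 14.5 (1.37 ± 0.32, adjusted p = 0.00103). Its call was lost without KRAB replicate 2 (1.03, adjusted p = 0.0886). The promoters of TAP1, HLA-F and MX1 are those printed above with the interferon element in capitals. None of the 4 rows overlapped between KRAB and the others, and all 4 were higher again with tamoxifen, by 2.23 for the HLA-B row, 1.77 for TAP1, 2.15 for HLA-F and 4.47 for MX1.

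Of 21 rows at or opposite interferon-response genes 11 had too few counts for an adjusted p in vehicle. Of the 10 others 1 was called higher and 0 lower, against 2.23% and 2.70% of all genes with an adjusted p. Of the 21 rows 7 had an unadjusted p under 0.05, edgeR called 2 and limma 1, 18 had a positive sign, and the median log2 difference was 0.68. Of 19 rows of MHC class I and peptide loading 18 had an adjusted p, 3 of them were higher and 0 lower, 17 of the 19 were positive, and the median was 0.38. Over all 5816 genes 2987 were positive and the median was 0.01. IFI6, an interferon-induced mitochondrial protein, stood at 9.49, 3.59 and 12.9 against 0 to 4.60, with a difference of 3.68 ± 0.88 and no adjusted p in DESeq2 (adjusted p = 0.00855 in edgeR, 0.177 in limma). IFI27, another interferon-induced gene, reached at most 5.39 in a KRAB library and 1.93 in the others (2.34 ± 1.04, not called by edgeR or limma). These counts are too low for a firm size. IFITM1, an interferon-induced membrane protein, missed the threshold at 1.44 ± 0.48 (adjusted p = 0.054), and ISG15, a ubiquitin-like interferon product, stood at 0.23 ± 0.31 (adjusted p = 0.844). With tamoxifen 11 of the 14 interferon rows and 10 of the 18 class I rows that had an adjusted p were called higher in KRAB, against 9.01% of the 4463 genes with one (6.91% of all tested). The medians over the 21 and 19 rows were 1.87 and 0.88.

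Rows at or opposite KRT13, KRT8 and VIM were higher and KRT16 was lower, while KRT5, KRT14, KRT15, KRT17, KRT18, KRT19 and KRT6A were not called. In bulk RNA, more cells of a type and more RNA per cell cannot be told apart. AC019349.5 lies opposite KRT13, a keratin of stratified epithelium, and stood at 173, 188 and 227 in KRAB against 57.2 to 155, with a difference of 0.91 ± 0.15 (adjusted p = 1.06e-07). With tamoxifen it reached 1273, 1043 and 1233 against 56.8 to 106. The row of KRT8, which lies opposite KRT18, both luminal keratins, was higher by 0.30 ± 0.07 (adjusted p = 0.00103), at 786, 866 and 929 against 657 to 736. Its call was lost without KRAB replicate 3 (0.24, adjusted p = 0.0607). VIM-AS1 lies opposite VIM, the gene of the mesenchymal filament vimentin. It stood at 8745, 9012 and 9496 against 4406 to 6269 in the other vehicle libraries, a difference of 0.82 ± 0.05 (adjusted p = 1.1e-67). VIM on its own strand was higher by a like amount (0.80 ± 0.17, adjusted p = 0.000113). Unlike KRT13, the VIM-AS1 difference was smaller with tamoxifen (0.37 ± 0.05), by 0.46 ± 0.07 (adjusted p = 4.98e-10). KRT16, a keratin of activated epidermis with close paralogs, was lower at 37.0, 51.2 and 45.0 against 54.5 to 89.6 (−0.70 ± 0.23, adjusted p = 0.0459), a call that ended under edgeR (adjusted p = 0.0951) and limma (adjusted p = 0.134). The KRT16 call also ended without KRAB replicate 1 (0.272), 2 (0.0581) or 3 (0.131), and in further settings.

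Some of the other higher rows lay at or opposite cell adhesion and growth factor genes. No list of such genes was counted, and the row overlapping CDSN, which holds cells together, was lower (below). CTD-2369P2.8 lies opposite ICAM4 and ICAM1, adhesion molecules that bind leukocyte integrins, and stood at 199, 143 and 140 against 48.8 to 110 (1.04 ± 0.20, adjusted p = 2.62e-05). CTA-134P22.2, opposite the cell adhesion gene CADM3, stood at 164, 196 and 211 against 66.2 to 100.5 (1.11 ± 0.15, adjusted p = 1.82e-10). NUDT6 lies opposite FGF2, a fibroblast growth factor, and stood at 167, 204 and 237 against 101 to 125 (0.84 ± 0.17, adjusted p = 3.49e-05). All 3 rows were clear of the other lines in vehicle, and each difference was larger with tamoxifen, by 1.09, 0.72 and 0.91. BASP1, a membrane-bound signalling protein whose row overlaps BASP1-AS1, stood at 302, 266 and 248 against 131 to 167 (0.83 ± 0.11, adjusted p = 1.46e-10), and the row opposite RHOBTB2, RP11-875O11.1, was higher by 0.87 ± 0.14 (adjusted p = 3.88e-08). Of the others named by rule, CTD-3193K9.3 opposite CNTNAP1 was higher by 1.07 and lost its call without KRAB replicate 2, SLC46A1, a folate transporter gene with most of its exonic bases opposite SARM1, was higher by 0.83, and CKAP4 (opposite TCP11L2) by 0.81, which was not called under edgeR (adjusted p = 0.0861) or limma (adjusted p = 0.07). FN1 and THBS1, matrix glycoproteins chosen after their values were seen, stood at 21.8, 26.1 and 13.8 against 4.93 to 12.5 and at 31.3, 16.2 and 15.6 against 4.16 to 11.8.

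The most extreme difference in either direction was a loss. PSORS1C1 (chr6:31082527-31107869, plus strand) overlaps CDSN, the gene of corneodesmosin, which holds cornified cells together. It stood at 6.65, 0.898 and 4.59 in the KRAB vehicle libraries and between 94.1 and 126 in the 6 others. The difference was −4.83 ± 0.43 (adjusted p = 8.13e-26), and it stayed at −4.88 ± 0.45 with tamoxifen, where the KRAB libraries held 7.76, 1.16 and 3.14. The effect of tamoxifen on it in the KRAB line was 0.07 ± 0.61 (adjusted p = 0.966). RP5-977B1.11, an unplaced noncoding row, was lower at 252, 270 and 277 against 477 to 922 (−1.45 ± 0.10, adjusted p = 1.16e-45). Here the difference shrank with tamoxifen, to −0.77 ± 0.10, and the other lines then held 435 to 527 while KRAB stayed between 249 and 284.

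Several rows were called lower than in the other lines before induction and were not called with tamoxifen. A call in 1 treatment and none in the other is not by itself a change between them. CTB-191K22.5 lies opposite MYH14, a nonmuscle myosin heavy chain, and stood at 14.2, 14.4 and 23.9 in KRAB against 55.2 to 123 (−2.13 ± 0.32, adjusted p = 3.79e-09). With tamoxifen it stood at 67.0, 33.7 and 49.3, within the 37.0 to 80.9 of the other lines, and the difference between the 2 treatments was 1.97 ± 0.42 (adjusted p = 0.000157). PCSK7, a proprotein convertase, stood at 14.2, 31.4 and 21.1 against 60.7 to 128 (−1.98 ± 0.28, adjusted p = 2.17e-10). With tamoxifen the other lines fell to between 21.4 and 40.5, a range that holds the KRAB values. NOTCH3, a receptor of cell fate decisions, was lower by 1.29 in vehicle (13.3, 17.1 and 16.5 against 30.4 to 54.3, adjusted p = 0.00238) and at −0.24 ± 0.31 with tamoxifen. The histone row HIST2H2AA3, which has a near-identical copy, was lower by 0.99 in vehicle (76.0, 73.7 and 81.8 against 124 to 175) and at −0.32 ± 0.14 with tamoxifen (adjusted p = 0.104).

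HOXD3, a homeobox gene opposite HOXD-AS2, and PPIL2, a cyclophilin-like splicing protein gene opposite YPEL1, were lower in both treatments. HOXD3 stood at 21.8, 44 and 43.2 against 64.7 to 91.6 in vehicle (−1.14 ± 0.23, adjusted p = 8.2e-05), and its difference with tamoxifen was −0.85 ± 0.25. PPIL2 stood at 43.7, 44 and 27.6 against 64.3 to 99.5 (−1.09 ± 0.24, adjusted p = 0.000229), with −0.86 ± 0.24 for tamoxifen. L3MBTL2, a Polycomb-family protein gene opposite L3MBTL2-AS1, was lower by 1.15 ± 0.33 on the log2 scale in vehicle, and without KRAB replicate 1 its call was lost (−0.93, adjusted p = 0.163). With tamoxifen its difference was −1.73 ± 0.35, but its row also fell in the VP64 line, to between 28.6 and 127. MPPE1 (opposite GNAL), ZNF219 (opposite TMEM253) and DNAJB7 (opposite XPNPEP3) were lower by 1.06, 1.03 and 1.02 in the fitted model and each lost its call under edgeR and limma.

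Of the vehicle differences 11 turned round with tamoxifen. RP11-706C16.8 lies opposite LY6D, a marker of stratified squamous and progenitor epithelium, and stood at 25.6, 46.7 and 29.4 in vehicle-treated KRAB cells against 52.2 to 91.4 in the other lines (−1.16 ± 0.22, adjusted p = 1.49e-05). With tamoxifen it stood at 250, 216 and 253 against 30.4 to 49.7 (2.65 ± 0.19). LY6D on its own strand went the same way, from 8.54, 4.49 and 8.27 against 15.3 to 28.1 in vehicle (−1.52 ± 0.44, adjusted p = 0.0156) to 83.5, 55.7 and 54.5 against 7.79 to 25.3 with tamoxifen. Its vehicle call was lost under limma (adjusted p = 0.166) and without KRAB replicate 2 (0.140). LTBR, a receptor of lymphoid organ signalling whose row overlaps the sodium channel gene SCNN1A, was higher in vehicle at 614, 677 and 678 against 492 to 550 (0.34 ± 0.08, adjusted p = 0.00103). With tamoxifen it was far lower, at 95.1, 115 and 89.1 against 296 to 822 (−2.27 ± 0.11). PSCA, a prostate stem cell surface antigen chosen after its values were seen, stood at 25.6, 31.4 and 26.6 in vehicle against 6.25 to 12.4, and at 0 in all 3 KRAB tamoxifen libraries against 12.2 to 40.0. The row opposite MDM2, the ubiquitin ligase of p53, moved from −0.45 ± 0.14 in vehicle (adjusted p = 0.0233) to 0.89 ± 0.14. Its vehicle call was lost under limma (adjusted p = 0.0803), without KRAB replicate 1 (0.195) or 2 (0.0618), without 3X replicate 2 (0.0873) and without VP64 replicate 2 (0.0893). The row opposite IDI1, a cholesterol synthesis enzyme, moved from −0.53 ± 0.17 (adjusted p = 0.0423) to 0.40 ± 0.15. The IDI1 vehicle call was lost under edgeR (adjusted p = 0.088), limma (adjusted p = 0.188) and a replicate block (0.0561). It was also lost without KRAB replicate 1 (0.111), 2 (0.179) or 3 (0.104), and in further settings.

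**Figure D1:**
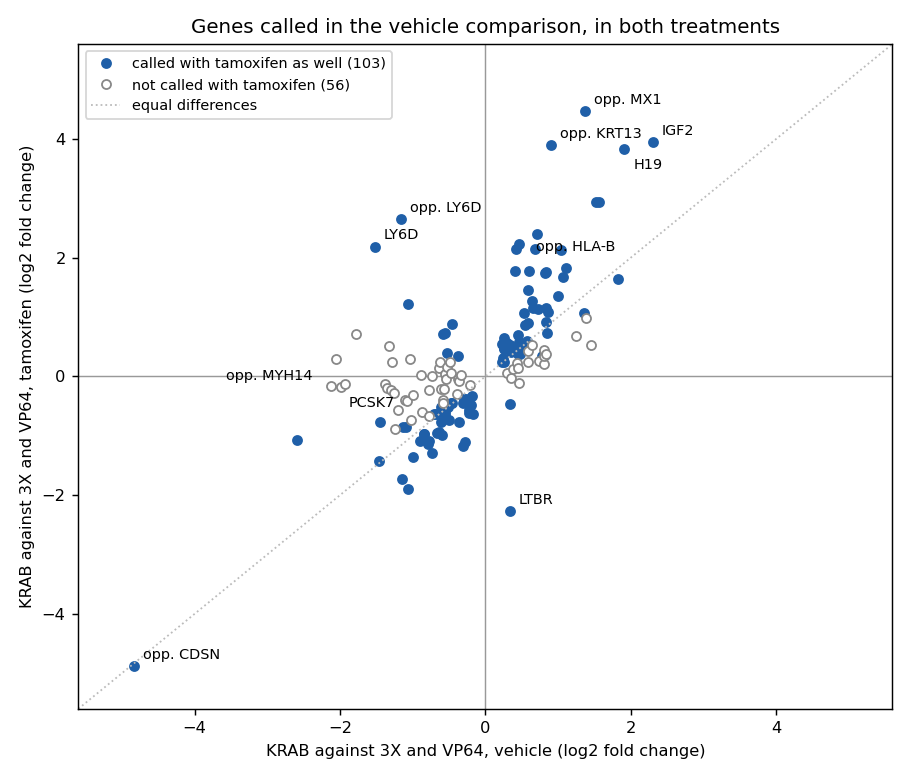
Log2 difference of the KRAB line from the 3X and VP64 lines with vehicle (horizontal) and with tamoxifen (vertical) for the 159 genes called with vehicle, 1 point per gene, with the dotted line marking equal differences. Blue points are the 103 genes also called with tamoxifen and open points the 56 that were not. The vehicle axis chose the genes, and points in the upper left and lower right are the 11 genes called in opposite directions and further genes not called with tamoxifen.

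No steroid-receptor target with an adjusted p was called before induction. These are genes that steroid receptors switch on through such response elements, the sites that the construct is built to occupy. Of 12 tested rows at or opposite 24 listed genes 5 had too few counts for an adjusted p in vehicle (PER1, HOMER2, MAF, MT1X and the MX1 row opposite TMPRSS2). Of the 7 others 0 were called in either direction by DESeq2. Over all 12, 2 had an unadjusted p under 0.05 and 0 were called by edgeR or limma, which adjust every row. With tamoxifen 5 were called lower in KRAB and 1 higher (MX1). FKBP5, a steroid receptor co-chaperone, stood at 60.8, 26.1 and 46.9 in vehicle-treated KRAB cells against 27.1 to 46.9 in the others, and at 5.82, 8.12 and 8.38 with tamoxifen against 11.7 to 63.6. The vehicle difference was 0.37 with a 95% interval of −0.21 to 0.96, while the tamoxifen difference was −2.05 with an interval of −2.88 to −1.23. TSC22D3, the glucocorticoid-induced leucine zipper with a short overlap by NCBP2L, stood at 31.3, 39.5 and 20.2 in vehicle against 26.0 to 38.4, and at 3.88, 5.80 and 3.14 with tamoxifen against 23.0 to 51.1. Its vehicle difference of −0.08 had an interval of −0.69 to 0.53. CEBPD, a transcription factor of acute responses, had a vehicle difference of 0.21 (interval −0.17 to 0.59) against −1.83 with tamoxifen. MT2A, a metallothionein, stood at 0.06 (interval −0.77 to 0.89) against −2.88, and KLF9, a zinc finger factor, at 0.03 (interval −0.50 to 0.57) against −0.91. For these 5 genes the vehicle interval excluded the tamoxifen estimate, but the error of that estimate was not counted. The effect of tamoxifen within the KRAB line was −2.59 for FKBP5, −2.84 for TSC22D3, −2.28 for CEBPD and −2.34 for MT2A, all called. For KLF9 it was −0.38 ± 0.33 and not called (adjusted p = 0.566). NDRG1, a stress-responsive target, was the nearest to a vehicle call at −0.59 ± 0.21 (adjusted p = 0.088), and its tamoxifen difference was 0.16 ± 0.21.

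**Figure D2:**
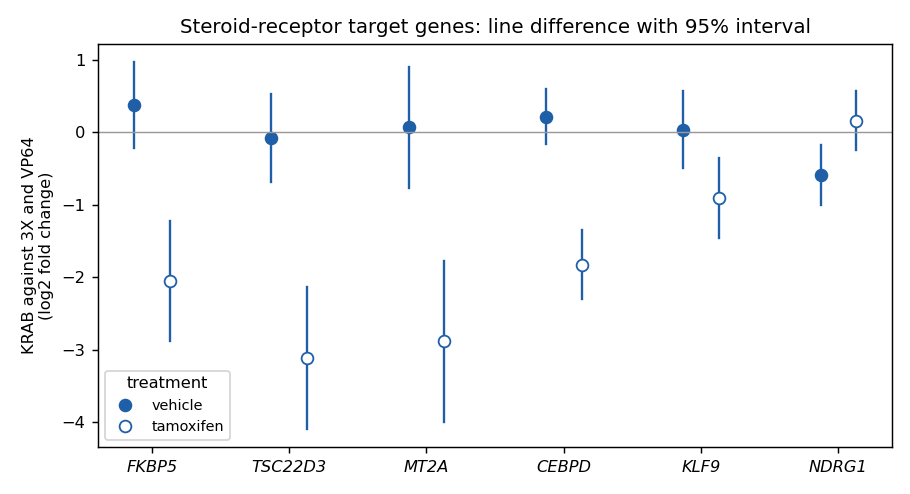
Log2 difference of the KRAB line from the 3X and VP64 lines for 6 steroid-receptor targets, with filled points for vehicle, open points for tamoxifen and bars for the 95% interval from the model. FKBP5, TSC22D3, MT2A, CEBPD and KLF9 lie near 0 with vehicle and below 0 with tamoxifen.

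The KRAB difference was then read in the 2 treatments as a whole, which share no library. With tamoxifen 748 genes differed between KRAB and the other lines (12.9%), 402 higher (6.91%) and 346 lower (5.95%). With total-count scaling in place of median-of-ratios scaling these were 294 higher and 503 lower, and the median of all genes moved from −0.01 to −0.14. Of the 159 genes called in vehicle 132 kept their sign with tamoxifen, 92 (57.9%) were called in the same direction, 11 in the opposite direction and 56 not. Of the 72 higher genes 52 (72.2%) were called higher again, 43 of them by more than in vehicle, and 3 were called lower. Of the 87 lower genes 40 (46.0%) were called lower again and 8 were called higher. The difference between these 2 shares was not tested.

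Read from the other side, 287 of the 402 genes higher in KRAB with tamoxifen (71.4%) were already on the higher side in vehicle, against 51.4% of the 5068 genes not called with tamoxifen, of which 1353 had no adjusted p. Their median vehicle difference was 0.15, against 0.84 with tamoxifen. Of the 346 lower genes 252 (72.8%) were on the lower side in vehicle, against 48.6%, with medians of −0.15 and −0.84. Vehicle calls in the same direction covered 12.9% of the 402 and 11.6% of the 346, against 0.335% and 0.77% of the uncalled genes. Across all 5816 genes tested the vehicle and tamoxifen differences had a Pearson r of 0.190 and a Spearman rho of 0.164. Across the 1450 genes with a mean of at least 50 normalized counts r was 0.455 and rho 0.361. Over the 188 of these without opposite-strand overlap r was 0.542. Genes are not independent replicates, and libraries of 1 line share its history in both treatments. On the scale of log2(mean + 1) r was 0.452 for KRAB and 0.266 for VP64 against 3X, a pair of lines with neither carrying KRAB.

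A score over these genes separated the vehicle libraries. It is the mean z-score of the 402 genes higher in KRAB than in the other lines with tamoxifen minus that of the 346 lower genes. The z-scores were taken over the 9 vehicle libraries. A lasting difference between lines, such as that of PSORS1C1, enters this gene set and separates the same lines in vehicle. The set holds 92 of the 159 vehicle calls in the same direction and 11 in the opposite one. The score therefore cannot tell lasting line differences from an induced effect. The KRAB libraries scored 0.874, 0.598 and 0.638, a mean of 0.703 ± 0.149 (SD, n = 3). The 3X libraries scored −0.362, −0.329 and −0.451 and the VP64 libraries −0.291, −0.262 and −0.413. All 3 KRAB libraries stood above all 6 others for the higher genes and below them for the lower genes. From the 47 higher and 103 lower genes without opposite-strand overlap the KRAB scores were 1.05, 0.671 and 0.530 and the others lay between −0.625 and −0.196.

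**Figure D3:**
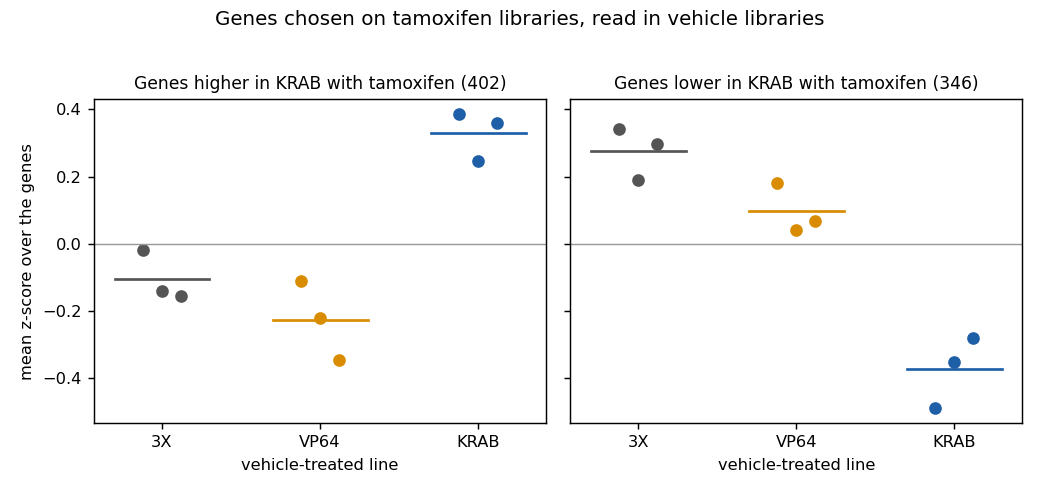
Mean z-score in each vehicle library of the 402 genes that were higher (left) and the 346 that were lower (right) in KRAB with tamoxifen, with 1 point per library and a bar at the group mean. The KRAB libraries lie above the 6 others on the left and below them on the right.

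The direct effect of tamoxifen in KRAB cells shares the KRAB vehicle libraries with this comparison and was set beside it only gene by gene. Tamoxifen changed 561 genes in the KRAB line (9.65%). It raised H19 by 1.77 ± 0.24, the HLA-B row by 1.73 ± 0.07, the MX1 row by 2.68 ± 0.31 and the KRT13 row by 2.60 ± 0.15, all of which were already higher in vehicle. It moved PSORS1C1 by 0.07 ± 0.61 and lowered VIM-AS1 by 0.37 ± 0.05 on the log2 scale, against vehicle differences of −4.83 and 0.82. The line difference itself changed between vehicle and tamoxifen in 309 genes (5.31%), 57 of them among the 159. In 23 of the 57 it moved further from 0 in the direction of the vehicle difference, and in 34 it moved towards or through 0. Of the rows named for their tamoxifen difference, 4 were not called in vehicle. C7orf49 and ARFRP1 (overlapping ZGPAT) were higher with tamoxifen by 3.73 and 3.15, with vehicle differences of 0.90 ± 0.43 (adjusted p = 0.287) and 1.53 ± 0.65 (adjusted p = 0.198). The ARFRP1 vehicle difference rested on KRAB replicate 1, at 61.7 against 6.29 and 10.1 in the other KRAB libraries, and was −0.14 without it. RP11-154D6.1 and PGBD2 were lower with tamoxifen, at −2.07 and −2.02, with vehicle differences of 0.09 ± 0.19 (adjusted p = 0.906) and −0.41 ± 0.31 (adjusted p = 0.611).

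The calls in further lists are to be read against the 2.23% higher and 2.70% lower among genes with an adjusted p. Of 14 squamous rows 9 had an adjusted p, of which 1 was higher (KRT13) and 3 lower (KRT16 and both LY6D rows), and the median of the 14 was −0.42. SPRR1B, a cornified envelope gene without an adjusted p in DESeq2, stood at 0.949, 0 and 0.919 against 6.44 to 13.5 (−3.94 ± 1.16, adjusted p = 0.0405 in edgeR and 0.259 in limma). Of 7 luminal rows 3 had an adjusted p and 1 was higher (KRT8). Of 8 NF-κB and TNF pathway rows 3 had one and 2 were higher (the LTBR row and the ICAM row). The LTBR row lies opposite the sodium channel gene SCNN1A, which was also on this list, and its reads may be of either gene. Of 20 cholesterol synthesis rows, 13 with an adjusted p, the one opposite FDPS, RUSC1-AS1, was higher by 0.29 and the one opposite IDI1 lower. The FDPS call rested on KRAB replicate 1, which stood at 987 against 732 and 724 in the other KRAB libraries, and without it the difference was 0.13 (adjusted p = 0.577). Of 17 S-phase rows, 13 with an adjusted p, 1 was higher, ENOSF1 opposite the thymidylate synthase gene TYMS, by 0.46 ± 0.09 (adjusted p = 2.99e-05). Of 12 p53 and growth-arrest rows, 8 with an adjusted p, 1 was lower (MDM2). Among 23 basal, 17 G2/M, 23 MYC and nucleolar, 23 stress-response and 14 KRAB cofactor rows, 0 were called by DESeq2, edgeR or limma (DESeq2 gave no adjusted p to 5, 7, 6, 4 and 5 of them), and 4, 0, 2, 2 and 0 had an unadjusted p under 0.05 in DESeq2. Their median log2 differences were 0.11, 0.16, 0.08, −0.01 and 0.15.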

How the data were processed

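RNA was read with stranded mRNA libraries, and the authors quantified genes with Salmon 1.9.0 against GRCh37. The deposited table holds their expected counts (estimated reads per gene, not scaled for depth or length), which were rounded to whole numbers. Reported values divide them by size factors. A single DESeq2 1.42.0 fit (under R 4.3.3) gave 1 mean to every one of the 6 groups, using all 18 libraries, median-of-ratios size factors and independent filtering, on genes that reached 10 counts in 3 or more libraries. The KRAB vehicle mean was set against the average of the 3X and VP64 vehicle means, the same contrast was made with tamoxifen, and their difference was tested. Wald p-values were adjusted by Benjamini-Hochberg over the genes that passed independent filtering, and genes under 0.05 are called. These were 3222 genes in the vehicle comparison and 4463 in the tamoxifen comparison. Intervals are the estimate ± 1.96 SE at 95%. Positions come from GENCODE on GRCh37 (96.9% of the genes tested matched), and symbols from the table.

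Named genes are up to 12 higher and 12 lower in vehicle, and up to 6 and 6 with tamoxifen, by absolute fold change, with an adjusted p under 0.05, a mean of at least 30 normalized counts and no overlap between 3 and 6 libraries, plus construct and steroid genes and any listed gene called in vehicle. The comparison, its members and the 16 gene lists were chosen with earlier results of these data known. The counts of pairs of replicates differed by more than sampling noise. The labels name neither batches nor dates. The model was tested on simulated data. Alternatives were edgeR 4.0.16, limma-voom 3.58.1, other scalings and filters, a replicate block, rows without opposite-strand overlap and each library left out.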

Additional observations from a re-analysis of the deposited data

Results flagged for a closer look

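The difference between the KRAB line and the other lines changed between vehicle and tamoxifen, by a test of that change, in 309 genes. The changes below are the tamoxifen difference minus the vehicle difference on the log2 scale, for named genes called in vehicle.

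Among rows higher in uninduced KRAB cells, the difference grew by 3.10 for AP001610.5 (opposite MX1), 2.99 for AC019349.5 (opposite KRT13), 1.92 for H19, 1.76 for XXbac-BPG248L24.12 (opposite HLA-B), 1.72 for HCG4P11 (opposite HLA-F), 1.65 for IGF2, 1.17 for TAPSAR1 (opposite TAP1), 1.09 for CTD-2369P2.8 (opposite ICAM4), 0.91 for NUDT6 (opposite FGF2) and 0.72 for CTA-134P22.2 (opposite CADM3). It changed by −0.46 for VIM-AS1 (opposite VIM) and by −2.60 for LTBR (opposite SCNN1A), the latter passing through 0.

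Among rows lower in uninduced KRAB cells, the change was 3.81 for RP11-706C16.8 (opposite LY6D), 3.70 for LY6D, 1.34 for RP11-611O2.5 (opposite MDM2), 1.32 for ZNF219 (opposite TMEM253) and 0.92 for IDI2-AS1 (opposite IDI1), all of which passed through 0. It was 1.97 for CTB-191K22.5 (opposite MYH14), 1.81 for PCSK7, 0.68 for RP5-977B1.11 and 0.68 for HIST2H2AA3.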

How the results depend on the processing

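The count of 159 vehicle genes stayed within 1.5 times under edgeR (114, of which 110 are among the 159), limma (110, 106 shared), total-count (170) and TMM scaling (160), no low-count filter (189), no independent filtering (144), only the groups compared (124), the 6 others as 1 group (117) and each library left out (109 to 161). Restricting to rows without opposite-strand overlap, which tests far fewer genes, left 12 genes in the vehicle comparison, 11 against 3X, 8 against VP64, 0 for VP64 against 3X (96 at an unadjusted p under 0.05), 128 with tamoxifen, 92 for tamoxifen in KRAB and 48 for the change of the line difference. The share of genes higher with tamoxifen that lay higher in vehicle was then 78.7%, and the share of vehicle calls repeated with tamoxifen 66.7% (8 of 12). Leaving out single libraries took the first share to between 65.2% and 72.6%, lowest without KRAB vehicle replicate 3. These shares and their alternatives were added after seeing the data. The count against 3X was 94 under limma and 97 to 137 with a library left out, lowest without 3X replicate 2 or KRAB replicate 1. Against VP64 it was 54 in a fit of only the groups compared and 65 to 107 with a library left out, lowest without VP64 replicate 3. VP64 against 3X gave 4 genes under edgeR, 7 under limma, 29 with total-count scaling, 8 without independent filtering, 17 from only the 9 vehicle libraries and 2 to 53 with a library left out, lowest without VP64 replicate 3, with 16 without 3X replicate 1 or 2. The causes were not tested.

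Of 38 named genes called in vehicle none changed sign under any alternative run. Settings other than leaving out a library gave 338 values, of which 38, from 10 genes, were no longer called, and leaving out a library gave 342, of which 58, from 14 genes, were not. Signs that changed with a library left out belong to genes not called in vehicle: TSC22D3 (−0.32 to 0.14), KLF9 (−0.055 to 0.098), MT2A (−0.13 to 0.37), ARFRP1 (−0.14 to 1.99) and RP11-154D6.1 (−0.040 to 0.21).

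The replicate numbers are not stated to mark a shared batch or day. Deviations of same-numbered libraries of different groups correlated with a median r of 0.042 over 45 pairs (−0.302 to 0.315), against −0.015 for other numbers, so the numbers were not taken as pairs. With a replicate block the vehicle comparison gave 149 genes, and no count moved by over 1.5 times. At the depth of at most 792282 counts a library, genes with a few counts could not be compared, and an interval for a single gene such as MT2A spans more than 1 on the log2 scale.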

Other observations

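Chromosome 22 was chosen after its values were seen. Of its 140 tested genes 10 were called in the vehicle comparison (7.14%), all of them lower in KRAB. Of the 51 with a mean of at least 30 normalized counts 44 had a negative sign, and the median log2 difference was −0.25. The median was −0.37 against 3X and −0.13 against VP64, it was −0.24 for VP64 against 3X, and −0.14 for KRAB against the others with tamoxifen. On the 19 other chromosomes with at least 20 such genes the vehicle median lay between −0.10 and 0.07. PPIL2, L3MBTL2 and DNAJB7 lie on this chromosome. The cause was not tested.

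GAS6, a ligand of receptor tyrosine kinases chosen after its values were seen, stood at 22.8, 23.4 and 25.7 in the KRAB vehicle libraries and between 5.74 and 12 in the 6 others, a difference of 1.39 on the log2 scale (adjusted p = 0.0143). With tamoxifen the difference was 0.99 (adjusted p = 0.0536).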
